A study of Mus musculus with 72 samples.

Results

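The tibialis anterior (TA), a fast muscle at the front of the shin, was compared with the soleus (SOL), a slow postural muscle of the calf, in mice whose muscle fibres had lost the clock gene Bmal1. The comparison covered 36 of 72 arrays, which were the 18 TA and the 18 SOL arrays labelled mKO, and all 20239 named genes, with 1 probe set per gene. In mKO mice, floxed Bmal1 is cut by a Cre recombinase that the Mlc1f promoter, that of a fast myosin light chain, drives in muscle fibres. The other 18 animals were Cre-negative littermates (Ctrl). All were C57BL/6 males aged 5 months, kept on 12 h of light and 12 h of darkness, and both muscles of 3 animals per genotype were taken at each of 6 Zeitgeber times (ZT), every 4 h from ZT0, when lights came on. Because no Ctrl animal carried Cre, the presence of the transgene and the loss of Bmal1 cannot be told apart. The labels give no share of fibres that recombined in either muscle. Every value below is a log2 array signal, and a difference is the TA value minus the SOL value of the same animal, averaged over the 6 times and given with its standard error (SE).

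Skeletal muscle fibres are specialised for speed or for endurance. Slow fibres use the slow isoforms of the sarcomere proteins, pump calcium back into the reticulum with a slow pump and burn fat, whereas fast fibres use fast isoforms, release and clear calcium quickly and rely more on glycogen and glycolysis. Bmal1 (gene symbol Arntl) pairs with Clock or Npas2 to drive Per, Cry, Nr1d and Dbp genes, and in muscle this loop also sets the daily course of fuel use. Comparing the muscles within each mKO animal asks how far fast and slow muscle keep their separate programmes without that loop.

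Array medians of the 36 mKO arrays lay between 6.70 and 6.85, and no pair of arrays held identical values. Precision is limited by the number of arrays. Levels fitted the muscle labels: the mean of 13 slow sarcomere genes was 8.25 to 8.93 on the TA arrays, against 12.24 to 12.45 on the SOL arrays. Arntl itself had a lowest, median and highest value of 7.40, 8.19 and 8.48 in mKO TA and 7.08, 7.89 and 8.53 in mKO SOL, against 6.84, 8.22 and 9.37 in Ctrl TA and 6.55, 7.79 and 9.27 in Ctrl SOL. These ranges overlap, and since the sources used here do not say which exons the Arntl probes cover, its signal does not check the deletion. Animals carried identification numbers of 3 series, with 11 mKO animals in BM3, 3 in BM2* and 4 in BM2, which the labels do not explain and which were treated as possible batches.

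In mKO animals 5740 genes (28.4% of those tested) were higher in TA and 4113 (20.3%) were lower, 48.7% together, by limma with Benjamini-Hochberg adjustment at 0.05. The median of the called differences was 0.23 in size, and the median difference over all genes was 0.04. Large differences were rarer: 185 called genes (0.914%) were at least 2-fold higher in TA and 233 (1.15%) at least 2-fold lower, and 413 of these 418 had the same sign in all 18 animals. All 18 TA arrays lay above all 18 SOL arrays for 801 genes (3.96%) and below them for 748 (3.7%), 7.65% together. In these whole muscles, fewer cells of a type and less RNA per cell cannot be told apart.

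Of the lists, the slow sarcomere set TA and SOL furthest apart. All 13 members of the slow list, with a median difference of -3.66, were lower in TA, and in each the 18 TA arrays lay below the 18 SOL arrays. The shares over all genes were 20.3% called lower and 3.7% with all TA arrays below all SOL arrays. Myl2, the slow regulatory myosin light chain, ran from 5.96 to 7.10 with a median of 6.49 on the TA arrays, against 12.81 to 13.37 with a median of 13.01 on the SOL arrays. It was lower in all 18 animals, by a difference of -6.54 ± 0.06 (SE, n = 18 animals), a 93.2-fold gap (adjusted p = 4.08e-22). For Tnnc1, the slow and cardiac troponin C, the lowest, median and highest values were 6.34, 6.76 and 7.43 in TA, against 12.86, 13.06 and 13.27 in SOL, a 77.8-fold gap (-6.28 ± 0.07). Tnni1, slow troponin I, reached 7.57 at most in TA and was never below 12.91 in SOL, 76.6-fold lower in TA. The slow myosin heavy chain Myh7 ran from 6.55 through a median of 7.26 to 8.10 in TA, against 12.96, 13.13 and 13.24 in SOL, and was 57.2-fold lower in TA (-5.84 ± 0.08, adjusted p = 7.59e-20). Slow troponin T, Tnnt1, was 44.8-fold lower, and the slow tropomyosin Tpm3 was 23.6-fold lower. The groups were also apart for the light chain Myl3 (-3.66 ± 0.08), for Myl6b (-2.73 ± 0.08) and for Myoz2, a calcineurin-binding Z-disc protein (-2.41 ± 0.09). Csrp3, a Z-disc mechanosensor, differed by -2.06 ± 0.15, the second slow-type myosin Myh7b by -0.96 ± 0.05, Ankrd2, a stretch-responsive ankyrin repeat protein, by -0.79 ± 0.06, and the myosin-binding protein Mybpc1 by -0.61 ± 0.03.

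All 12 members of the fast sarcomere list were higher in TA, with a median difference of 0.83, and for 11 of them the arrays of the muscles did not overlap. The shares over all genes were 28.4% called higher and 3.96% with all TA arrays above all SOL arrays. TA values of several members lay near 14.23, the highest value on any array, where gaps may be understated. Actn3, the alpha-actinin of fast Z-discs, had values of 13.67, 13.80 and 13.88 in TA (lowest, median and highest) and 8.45, 10.30 and 11.77 in SOL. It was 13.3-fold higher in TA (3.73 ± 0.19, adjusted p = 5.96e-12), with TA arrays close together and SOL arrays spread over more than 3 log2 units. Mybpc2, the fast myosin-binding protein C, stood at 12.99 to 13.22 in TA, against 7.00 to 10.64 in SOL, 12.7-fold higher. The IIB myosin heavy chain Myh4 ran from 13.46 through 13.72 to 13.84 in TA, against 7.67, 11.81 and 12.70 in SOL, 5.88-fold higher in TA (2.56 ± 0.29, adjusted p = 6.36e-07). The gap was narrower for the kinase Mylk2 (1.75 ± 0.03), the Z-disc protein Myoz1 (1.43 ± 0.04) and the regulatory light chain Mylpf (0.96 ± 0.04). Myh1, the IIX myosin heavy chain, differed by 0.70 ± 0.07. Fast troponin C and troponin I differed by 0.55 ± 0.04 (Tnnc2) and 0.52 ± 0.03 (Tnni2), the tropomyosin Tpm1 by 0.42 ± 0.03 and fast troponin T, Tnnt3, by 0.25 ± 0.03. The alkali light chain Myl1 was the member whose arrays overlapped, at 13.05 to 13.81 in TA and 13.38 to 13.65 in SOL (0.15 ± 0.04, higher in 17 of 18 animals, adjusted p = 0.00954). Myl1 lost its call within the BM3 animals alone (0.11, adjusted p = 0.19) and within the BM2 and BM2* animals (0.21, adjusted p = 0.064).

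**Figure D1:**
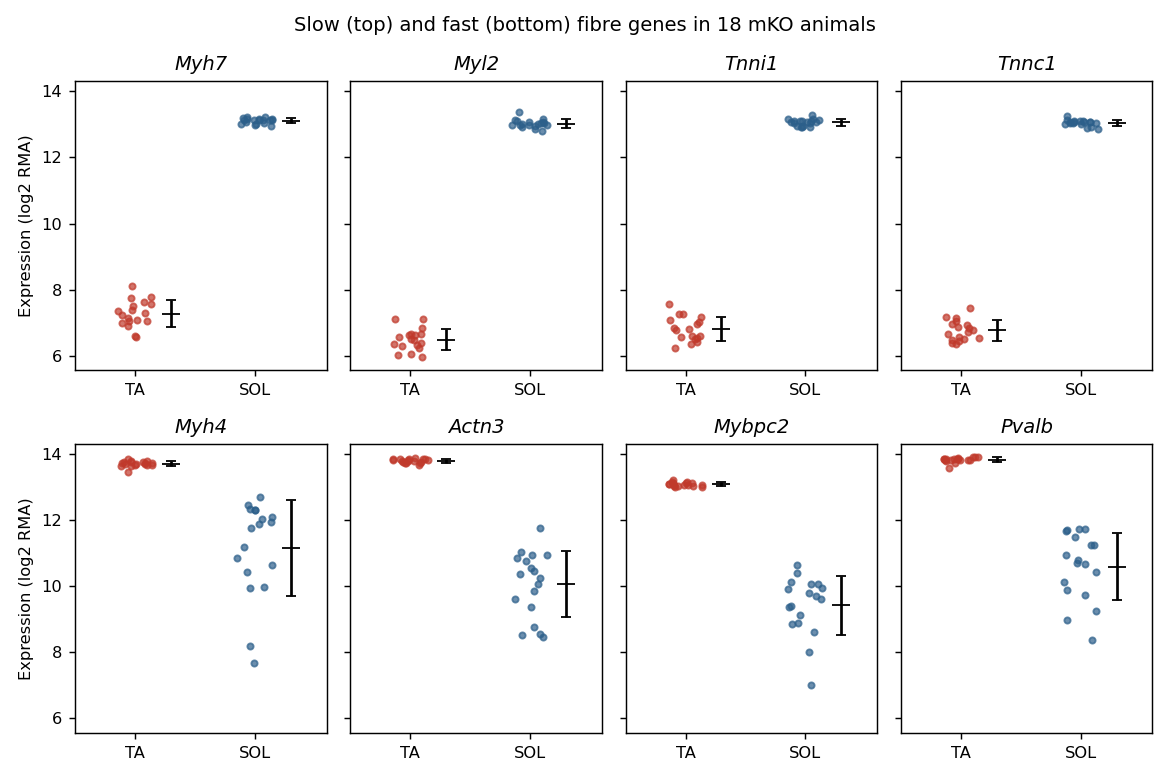
Log2 signal of 4 slow sarcomere genes (Myh7, Myl2, Tnni1, Tnnc1) and 4 genes of fast fibres (Myh4, Actn3, Mybpc2, Pvalb) in mKO TA (left) and mKO SOL (right), 1 point per animal, with mean and SD bars (n = 18). The muscles do not overlap in any panel, and Myh4 in SOL runs from 7.67 to 12.70 while TA stays between 13.46 and 13.84.

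Of 6 other myosin heavy chain genes, 5 were lower in TA, beside 20.3% of all genes. Myh2, the IIA chain of oxidative fast fibres, had values of 10.88, 11.79 and 12.27 in TA, against 13.58, 13.63 and 13.68 in SOL, and was 4.01-fold lower in TA (-2.01 ± 0.10). The embryonic chain Myh3 (-1.90 ± 0.07) and the cardiac alpha chain Myh6 (-1.46 ± 0.05) were lower with no overlap of arrays. Myh14, a nonmuscle chain (-0.38 ± 0.04), and Myh13, the extraocular chain (-0.20 ± 0.05), were lower with overlapping arrays. The perinatal chain Myh8 had a median of 7.10 in TA and 6.95 in SOL and did not pass (0.13 ± 0.06, adjusted p = 0.0745). Myosin heavy chain genes are near-identical over long stretches, so a probe set can pick up a neighbour's transcript, and single values in this family are uncertain.

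The promoters of slow members (Tnnt1 and Tnnc1) and of fast members with wide gaps (Mybpc2 and Myh4) are printed because these genes move together in opposite directions. Each run is the 250 bases before and 50 after the gene's start, from RefSeq on GRCm38.p6. Capitals mark E boxes, CANNTG, where myogenic factors of the MyoD family bind, and the M-CAT motif, CATTCC or GGAATG, which TEAD factors read. Both strands were searched, and no marked motifs overlap. Tnnt1 lies at chr7:4515926-4516225 on the minus strand, Tnnc1 at chr14:31208062-31208361 on the plus strand, Mybpc2 at chr7:44524620-44524919 on the minus strand and Myh4 at chr11:67237562-67237861 on the plus strand.
Tnnt1: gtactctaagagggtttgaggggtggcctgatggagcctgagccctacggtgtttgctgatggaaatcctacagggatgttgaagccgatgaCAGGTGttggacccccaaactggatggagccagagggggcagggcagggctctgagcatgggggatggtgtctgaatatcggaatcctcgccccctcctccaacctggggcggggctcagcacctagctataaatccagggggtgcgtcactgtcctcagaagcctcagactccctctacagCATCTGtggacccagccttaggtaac
Tnnc1: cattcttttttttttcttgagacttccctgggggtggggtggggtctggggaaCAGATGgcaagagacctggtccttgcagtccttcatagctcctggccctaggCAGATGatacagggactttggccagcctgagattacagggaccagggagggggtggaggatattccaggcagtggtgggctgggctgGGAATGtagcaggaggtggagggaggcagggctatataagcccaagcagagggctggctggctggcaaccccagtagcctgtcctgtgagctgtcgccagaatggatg
Mybpc2: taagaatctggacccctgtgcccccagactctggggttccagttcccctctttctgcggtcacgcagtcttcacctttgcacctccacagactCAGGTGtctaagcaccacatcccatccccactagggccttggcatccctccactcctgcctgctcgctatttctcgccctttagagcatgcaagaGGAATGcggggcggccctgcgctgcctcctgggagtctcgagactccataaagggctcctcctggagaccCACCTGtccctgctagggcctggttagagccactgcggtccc
Myh4: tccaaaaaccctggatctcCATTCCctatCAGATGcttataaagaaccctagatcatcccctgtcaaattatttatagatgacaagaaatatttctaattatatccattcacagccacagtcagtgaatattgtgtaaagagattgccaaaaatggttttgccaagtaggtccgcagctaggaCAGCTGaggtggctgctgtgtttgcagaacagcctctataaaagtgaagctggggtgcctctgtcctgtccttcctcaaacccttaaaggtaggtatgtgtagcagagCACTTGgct
Of 32851 promoter windows in the RefSeq table, 72.3% held an E box, 14.7% an M-CAT motif and 7.15% the CACGTG E box that clock factors bind. The window of Tnnt1 held 2 E boxes and no M-CAT motif, those of Tnnc1 and Mybpc2 2 E boxes and 1 M-CAT motif each, and that of Myh4 3 E boxes and 1 M-CAT motif. None of these 4 windows held CACGTG. Among 7 windows of fast list members in the table, 5 held an M-CAT motif, and among 18 windows of slow list members, 3 did. A match of letters is a description of the window and shows no binding.

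Calcium handling genes divided by muscle, with 16 of 25 measured members higher in TA, 6 lower and 3 not called. Of all genes, 28.4% were called higher and 20.3% lower. The slow reticulum pump Atp2a2 had values of 8.62, 8.95 and 9.26 in TA, against 13.53, 13.67 and 13.73 in SOL, 26.4-fold lower in TA (-4.72 ± 0.04, adjusted p = 2.62e-22). The pump inhibitors went both ways. Sarcolipin (Sln) was lower, with medians of 6.14 in TA and 10.67 in SOL, a 20.9-fold gap, as was phospholamban (Pln), with medians of 6.31 in TA and 9.17 in SOL (-2.82 ± 0.11). The slow calsequestrin Casq2 was lower by -1.21 ± 0.04. On the fast side stood parvalbumin (Pvalb), the cytosolic calcium buffer that speeds relaxation, with values of 13.59, 13.84 and 13.92 in TA, against 8.37, 10.76 and 11.75 in SOL, a 9.40-fold gap (3.23 ± 0.19). The calcium channel subunit Cacng1 (1.46 ± 0.05), the micropeptide pump inhibitor myoregulin, Mrln (1.35 ± 0.05), the kinase Camk2a (1.31 ± 0.03) and the triad protein Jph1 (0.82 ± 0.03) were higher in TA with no overlap of arrays.

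Among 32 measured regulators of fibre type, 12 were higher in TA, 15 lower and 5 not called, with a median of -0.01. The shares over all genes were 28.4% higher and 20.3% lower. Prox1, a homeobox factor that acts in slow fibres, had values of 5.59, 5.90 and 6.34 in TA, against 7.72, 8.27 and 8.56 in SOL, 4.93-fold lower in TA (-2.30 ± 0.05, adjusted p = 2.57e-17). The large Maf factor Maf, which drives Myh4 in mice, stood at 10.41, 10.66 and 10.84 in TA and at 8.21, 8.58 and 8.82 in SOL, 4.20-fold higher in TA (2.07 ± 0.04). Its relative Mafa was higher by 1.05 ± 0.06. Sox6, a repressor of slow fibre genes, had medians of 10.30 in TA and 9.33 in SOL (1.01 ± 0.03), and Tbx15, a factor of glycolytic fibres, was higher by 0.63 ± 0.03. The arrays of TA and SOL did not overlap for any of these 5 factors.

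Calcineurin and its relatives did not move as a block. The catalytic subunits Ppp3ca (0.61 ± 0.03) and Ppp3cb (0.60 ± 0.05) and the regulatory subunit Ppp3r1 (0.73 ± 0.05) were higher in TA, while Rcan1, an inhibitor of calcineurin that is also its target, was lower (-1.47 ± 0.07). Nfatc2 was lower in TA (-0.82 ± 0.04), whereas Nfatc1 (0.07 ± 0.04, adjusted p = 0.0989), Nfatc3 (0.06 ± 0.03) and Nfatc4 (-0.06 ± 0.05) did not pass. The oestrogen-related receptors Esrrg (-1.51 ± 0.05) and Esrrb (-1.34 ± 0.04), which drive oxidative genes, were lower with no overlap. Their coactivators Ppargc1a (-0.49 ± 0.06, lower in 17 of 18 animals) and Ppargc1b (-0.21 ± 0.04) were lower with overlapping arrays. Vgll2, a cofactor of TEAD proteins, was lower (-1.40 ± 0.06), as was Tead1 (-0.51 ± 0.03), whereas Tead4 was higher (0.60 ± 0.04). Mef2d (-0.41 ± 0.03) and Mef2c (-0.19 ± 0.03) were lower and Mef2a higher (0.16 ± 0.03). Fnip1, which holds back the oxidative programme in mice, was lower by -0.81 ± 0.04, Six4 was lower by -0.44 ± 0.04 and its partner Eya1 higher by 0.44 ± 0.05. Ppard and Purb did not pass (adjusted p = 0.625 and 0.0877).

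Genes of limb position, which mark where a muscle arose, had 9 of 26 measured members higher in TA, 9 lower and 8 not called. Among all genes, 28.4% were called higher and 20.3% lower. En1, a homeobox gene of the ventral limb, had values of 6.55, 6.82 and 7.01 in TA, against 7.69, 7.90 and 8.13 in SOL (-1.10 ± 0.05, adjusted p = 2.82e-13). Hoxd8 was lower by -1.09 ± 0.06, Hoxd10 by -0.47 ± 0.05 and Tbx4, the hindlimb T-box gene, by -0.42 ± 0.04. Hoxa11 (0.61 ± 0.04), Hoxa13 (0.56 ± 0.05) and Hoxc10 (0.44 ± 0.03) were higher in TA.

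The microRNA genes were singled out after their values were seen. Of 307 measured, 106 were higher and 35 lower in TA, beside 28.4% and 20.3% of all genes, 3 of the lower and 0 of the higher by at least 2-fold, with a median difference of 0.08. A probe set here reads the gene or its precursor and not a mature arm. Mir133b and Mir206 sit side by side on chromosome 1, and the muscle-enriched miRNAs made from them are known for roles in myogenic differentiation and at the nerve-muscle synapse. Mir23b, Mir27b and Mir24-1 form a cluster on chromosome 13. The mature sequences of 4 of these 5, from RefSeq on GRCm38.p6, are given with the seed, bases 2 to 8, in capitals. They lie at chr1:20679055-20679076, chr1:20682834-20682855, chr13:63300760-63300780 and chr13:63301251-63301272, all on the plus strand.
mmu-miR-206-3p: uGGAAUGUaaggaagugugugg
mmu-miR-133b-3p: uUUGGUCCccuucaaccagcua
mmu-miR-27b-3p: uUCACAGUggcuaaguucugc
mmu-miR-24-3p: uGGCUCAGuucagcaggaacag
No 2 of these share a seed. Mir133b had values of 6.02, 6.38 and 6.93 in TA, against 7.47, 9.23 and 9.84 in SOL, with no overlap (-2.52 ± 0.13, adjusted p = 5.54e-12). Mir206 stood at 2.96, 3.07 and 3.38 in TA, near the bottom of the scale, against 3.04, 4.37 and 5.35 in SOL, lower in 17 of 18 animals (-1.25 ± 0.14, adjusted p = 3.10e-07). In the chromosome 13 cluster, medians were 5.99 in TA and 6.70 in SOL for Mir23b, 5.07 in TA and 5.89 in SOL for Mir27b, and 4.63 in TA and 5.55 in SOL for Mir24-1. The difference was -0.95 for Mir23b, -0.90 for Mir27b and -0.94 for Mir24-1. Mir568 was the other gene over 2-fold lower in TA (-1.05 ± 0.07). Ctrl animals gave differences of -2.45 for Mir133b and -1.11 for Mir206.

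Fuel genes divided into glycolytic ones higher in TA and fat-handling ones lower in TA. Of 21 measured genes of glycolysis and lactate, 14 were higher and 5 lower, beside 28.4% and 20.3% of all genes (median 0.75). The lactate exporter Slc16a3 had values of 10.81, 11.24 and 11.50 in TA, against 7.41, 8.20 and 8.67 in SOL, an 8.26-fold gap (3.05 ± 0.08). Gpd1, the cytosolic glycerol-3-phosphate dehydrogenase, stood at 12.13 to 12.48 in TA and 9.18 to 10.02 in SOL (6.92-fold), and its mitochondrial partner Gpd2 was 6.46-fold higher in TA. Pfkfb4, which makes the activator of phosphofructokinase, was higher by 1.61 ± 0.05. On the other side, Ldhb, the lactate dehydrogenase subunit of oxidative tissue, had values of 9.08, 9.91 and 10.56 in TA and 11.77, 12.13 and 12.34 in SOL, 4.57-fold lower in TA. The lactate importer Slc16a1 was lower by -0.98 ± 0.04. These 6 genes had no overlap of arrays, while Hk1 (-0.24 ± 0.03) and Pfkl (-0.19 ± 0.04) were lower with overlap.

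Of 22 measured genes of glucose uptake and glycogen, 13 were higher in TA and 8 lower, beside 28.4% and 20.3% of all genes. Phosphorylase kinase subunits were higher, Phkg1 at 11.45, 11.86 and 12.00 in TA against 9.28, 9.56 and 9.78 in SOL (4.90-fold) and Phka1 by 1.56 ± 0.03. The Rab regulators of glucose transporter traffic went opposite ways. Tbc1d1 had values of 9.22, 9.65 and 10.03 in TA and 7.33, 7.57 and 7.71 in SOL, 4.18-fold higher in TA, whereas Tbc1d4 had 7.42, 7.63 and 7.97 in TA and 9.18, 9.58 and 10.08 in SOL, 3.78-fold lower. Phosphoglucomutase Pgm1 was higher (1.54 ± 0.03). The phosphatase inhibitor Ppp1r1a (-1.33 ± 0.05), glycogenin, Gyg (-0.46 ± 0.03), and the branching enzyme Gbe1 (-0.46 ± 0.04) were lower.

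Fatty acid uptake and oxidation had 24 of 27 measured members lower in TA, 1 higher and 2 not called, with a median of -0.47. Of all genes, 20.3% were lower and 28.4% higher. Lipoprotein lipase (Lpl) had values of 10.74, 11.05 and 11.54 in TA, against 12.86, 12.94 and 13.02 in SOL, 3.61-fold lower in TA (-1.85 ± 0.04, adjusted p = 8.72e-18). Ech1 (-0.94 ± 0.03) and Acadl (-0.89 ± 0.04), enzymes of mitochondrial beta-oxidation, and the fatty acid receptor Cd36 (-0.87 ± 0.04) were lower with no overlap. The member that was higher in TA was the uncoupling protein Ucp3, at 8.57, 9.47 and 10.84 in TA and 6.92, 8.25 and 10.27 in SOL. Its arrays overlapped widely, yet it was higher in TA in all 18 animals (1.10 ± 0.06). Of 20 genes of lipid storage and synthesis, 15 were lower and 4 higher (median -0.51). Dgat2, which makes triglyceride, was 5.35-fold lower in TA, at 7.66 to 8.70 in TA and a median of 10.56 in SOL, with no overlap. Acaca (-1.36 ± 0.07), Agpat2 (-1.28 ± 0.05) and Mgll (-1.14 ± 0.05) were lower, while the lipogenic factor Srebf1 (0.83 ± 0.04) and the phosphatidate phosphatase Lpin1 (0.67 ± 0.04) were higher. Adipocyte markers moved with these lists: 6 of 7 measured were lower in TA, their mean level was 6.61 to 6.92 on TA arrays and 6.95 to 8.12 on SOL arrays, and adiponectin (Adipoq) had medians of 5.98 in TA and 7.01 in SOL. Their part in the lipid results was not tested.

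**Figure D2:**
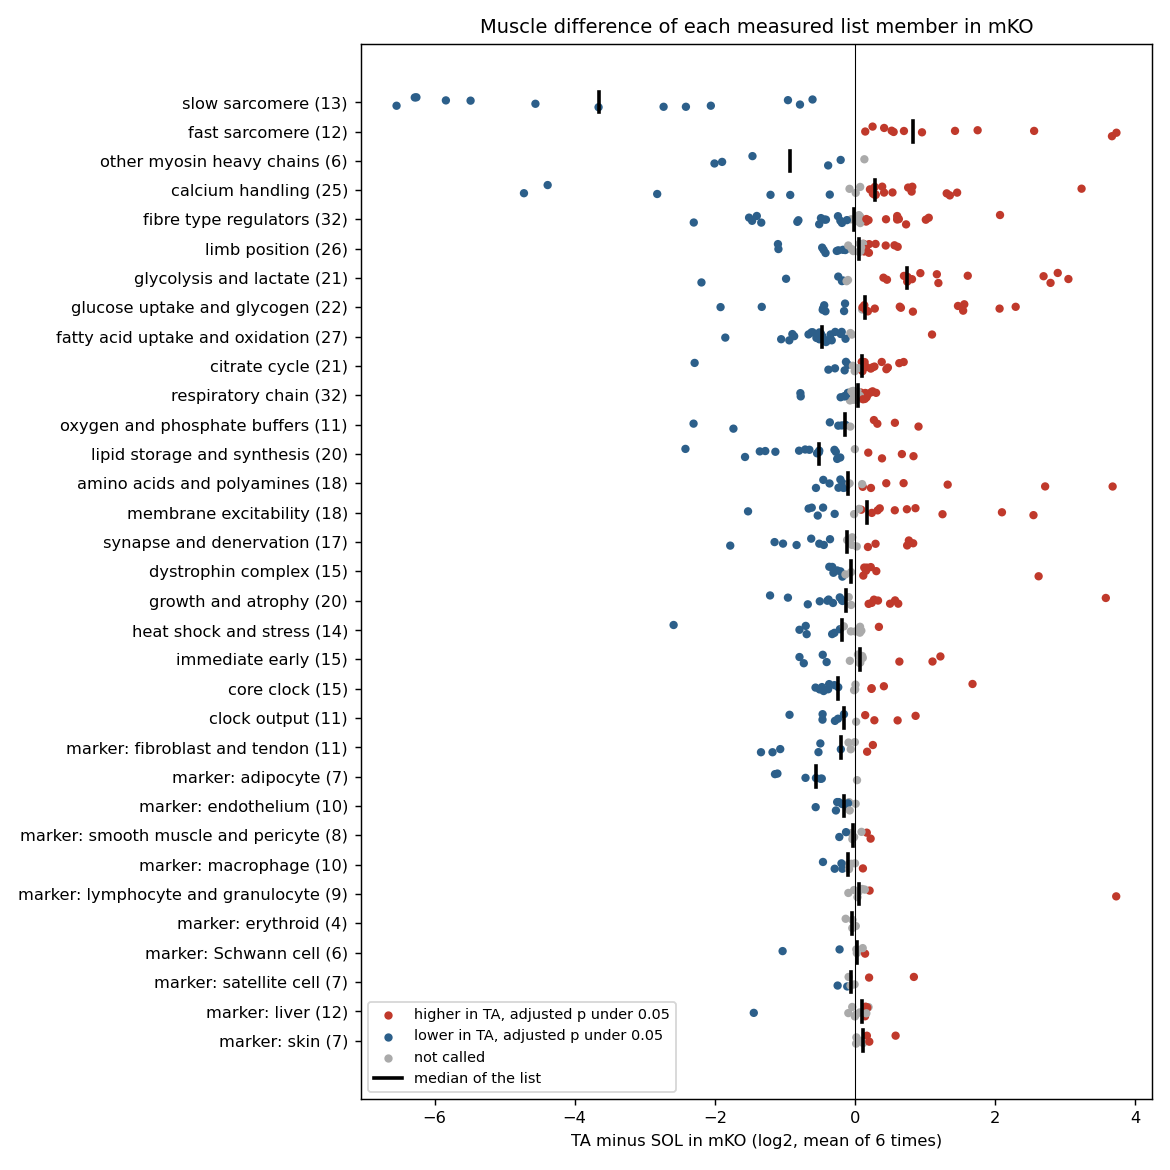
Difference TA minus SOL in mKO (log2, horizontal axis) of every measured member of each gene list, 1 dot per gene, red where called higher in TA, blue where called lower and grey where not called, with a tick at the list median. The slow sarcomere list lies wholly to the left, around a median of -3.66, and the fast sarcomere list wholly to the right of 0.

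Genes of the mitochondrial core went both ways. Among all genes, 28.4% were called higher and 20.3% lower. Of 21 measured citrate cycle genes, 12 were higher in TA and 6 lower, with a list median of 0.11, and for 5 of them the arrays did not overlap, beside 7.65% of all genes. Of 32 respiratory chain genes, 12 were higher, 7 lower and 13 not called, with a list median of 0.04, and for 2 of them the arrays did not overlap. A large exception was the mitochondrial isocitrate dehydrogenase Idh2, at 9.77, 10.35 and 10.72 in TA and 12.41, 12.61 and 12.78 in SOL, 4.89-fold lower in TA (-2.29 ± 0.04, adjusted p = 3.48e-19). Idh3a, the subunit of the NAD-linked enzyme, was higher (0.69 ± 0.05), as was the succinate dehydrogenase subunit Sdhd (0.63 ± 0.04). The cytochrome oxidase subunits Cox6a2, a heart and muscle isoform (-0.78 ± 0.04), and Cox8a (-0.77 ± 0.04) were lower with no overlap.

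Oxygen and phosphate buffers had 4 of 11 members higher and 6 lower. For this list and the next, the shares over all genes were 28.4% higher and 20.3% lower. Ampd1, the muscle AMP deaminase, was higher in TA (0.91 ± 0.03), whereas its relative Ampd3 had values of 7.25, 7.57 and 8.12 in TA and 9.51, 9.91 and 10.32 in SOL, 4.94-fold lower. Adenylate kinase Ak1 (0.57 ± 0.03) and creatine kinase Ckm (0.32 ± 0.03) were higher, and myoglobin, Mb, was lower by -0.19 ± 0.03 in all 18 animals. Carbonic anhydrase 3 (Car3) was 3.33-fold lower in TA. In amino acid and polyamine metabolism, with 7 of 18 measured higher and 8 lower, spermine oxidase (Smox) was 12.8-fold higher in TA, at 11.26, 11.49 and 12.08 in TA against 7.69, 7.84 and 8.36 in SOL. Alanine aminotransferase Gpt2 was 6.56-fold higher and spermine synthase Sms was higher by 1.32 ± 0.05. Glutamine synthetase, Glul, was lower by -0.56 ± 0.09 with overlapping arrays.

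Membrane excitability genes had 10 of 18 measured members higher in TA and 6 lower. For this list and those that follow, the shares over all genes were 28.4% higher and 20.3% lower. The sodium pump subunit Atp1b2 stood at 10.99, 11.13 and 11.37 in TA and 8.10, 8.57 and 9.29 in SOL, 5.84-fold higher, whereas Atp1b1 was lower (-0.66 ± 0.05). The fast potassium channels Kcnc4 (4.28-fold, medians 9.84 in TA and 7.79 in SOL) and Kcnc1 (1.25 ± 0.05) were higher, as was the chloride channel Clcn1 (0.86 ± 0.04), which keeps the resting membrane stable. The calcium-gated channel Kcnma1 was lower (-1.53 ± 0.03). Among synapse and denervation genes, 5 of 17 were higher and 8 lower. Ncam1, a cell adhesion molecule, had values of 7.52, 7.76 and 8.12 in TA and 9.27, 9.54 and 9.80 in SOL, 3.44-fold lower in TA. The receptor subunit Chrna1 (-1.15 ± 0.04), the collagen anchor Colq (-1.03 ± 0.05) and the kinase Musk (-0.83 ± 0.04) were lower, while acetylcholinesterase, Ache, was higher (0.83 ± 0.04). In the dystrophin complex, with 7 of 15 measured higher and 6 lower, the neuronal nitric oxide synthase Nos1 stood apart at 9.45 to 10.25 in TA and 6.82 to 7.80 in SOL, 6.15-fold higher. Dystrophin itself, Dmd, was lower by -0.31 ± 0.03.

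Growth and atrophy genes had 8 of 20 members higher in TA and 10 lower, beside 28.4% and 20.3% of all genes. Myostatin (Mstn), the secreted brake on muscle growth, had values of 8.23, 8.94 and 9.32 in TA and 4.73, 5.41 and 5.80 in SOL, 12.0-fold higher in TA (3.58 ± 0.07, adjusted p = 1.39e-17). Follistatin, Fst, which binds it, was lower (-0.67 ± 0.04), as were the autophagy genes Gabarapl1 (-1.21 ± 0.06) and Bnip3 (-0.96 ± 0.05). Heat shock genes had 7 of 14 measured lower, 1 higher and 6 not called. Hspa1a, inducible Hsp70, stood at 6.62, 8.06 and 9.09 in TA and 9.58, 10.49 and 11.40 in SOL, 6.01-fold lower in TA, and its difference was between -2.80 and -2.36 at the 6 times. Cryab, a small heat shock protein of Z-discs, was lower by -0.70 ± 0.04, the co-chaperone Bag3 by -0.69 ± 0.05 and Hspb7 by -0.79 ± 0.07. Of 15 immediate early genes, 3 were higher, 4 lower and 8 not called. As a list they were called about as often as all genes (48.7%). Nr4a1, an orphan nuclear receptor induced by activity, was higher in TA (1.22 ± 0.08, no overlap), whereas Nr4a2 (-0.40 ± 0.05), Egr1 (-0.46 ± 0.06) and Btg2 (-0.79 ± 0.06) were lower with overlap.

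Clock genes differed between the muscles by less than fibre genes. Of 15 measured core clock genes, 4 were higher in TA, 8 lower and 3 not called (median -0.24). The shares over all genes were 28.4% higher and 20.3% lower. Bhlhe41, a basic helix-loop-helix repressor, was the one without overlap, at 8.61, 9.06 and 9.45 in TA and 6.56, 7.19 and 8.31 in SOL, 3.20-fold higher in TA (1.68 ± 0.05, adjusted p = 1.01e-15). Its relative Bhlhe40 was lower (-0.47 ± 0.07). Per1 (-0.56 ± 0.05, lower in 18 of 18 animals), Per3 (-0.50 ± 0.04) and Per2 (-0.24 ± 0.04), the period repressors, were lower, as were Cry2 (-0.29 ± 0.05), Ciart (-0.45 ± 0.10) and the REV-ERB receptors Nr1d1 (-0.37 ± 0.06) and Nr1d2 (-0.38 ± 0.04). Rora, the activator that opposes them, was higher (0.41 ± 0.04, 18 of 18), and Npas2 (0.24 ± 0.06) and Arntl (0.24 ± 0.04) were higher with wide overlap. Npas2 lost its call within the BM3 animals (0.13, adjusted p = 0.177). Clock (-0.01 ± 0.04), Cry1 (0.01 ± 0.04) and Rorb (0.00 ± 0.04) did not pass.

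Of 11 clock output genes, 4 were higher in TA and 6 lower, beside 28.4% and 20.3% of all genes. Dbp, a PAR bZIP factor and direct Bmal1 target, had values of 7.30, 7.57 and 8.73 in TA and 7.85, 8.66 and 9.86 in SOL. The ranges overlapped, but Dbp was lower in TA in all 18 animals (-0.93 ± 0.06, adjusted p = 6.95e-11), by -0.49 at ZT0 and -1.35 at ZT16. The ubiquitin protease Usp2 (-0.46 ± 0.04), the cell cycle inhibitor Cdkn1a (-0.46 ± 0.05) and Hlf (-0.29 ± 0.04), a relative of Dbp, were lower. Tef, the third PAR bZIP gene, was higher (0.28 ± 0.04), as were the glucocorticoid-induced Tsc22d3 (0.86 ± 0.04) and Leo1, a subunit of an elongation complex (0.61 ± 0.04). The CACGTG E box lay in 3 of 14 promoter windows of clock output genes in the RefSeq table and in 4 of 18 (22.2%) of core clock genes, against 7.15% of all windows.

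Outside the lists of fibre, fuel and clock genes, some of the widest gaps were in genes less often named as fibre markers. Mss51, a mitochondrial protein of skeletal muscle, had a median of 11.27 in TA and 6.20 in SOL, where it reached 7.78 at most, with no overlap and a difference of 4.85 ± 0.12. Cyp4f39, a cytochrome P450, was higher by 3.85 ± 0.05, at a median of 9.67 in TA and 5.85 in SOL. Pla2g7, the platelet-activating factor hydrolase, was 11.9-fold higher, the kinase gene Mylk4 was higher by 3.37 ± 0.08 and Tlcd4, which encodes a membrane protein, by 3.34 ± 0.09. Ighm, the immunoglobulin heavy constant mu gene, stood at 10.73, 11.46 and 11.68 in TA and 7.20, 7.69 and 8.43 in SOL (3.73 ± 0.09). The other B cell marker named, Ms4a1, had medians of 4.77 in TA and 4.59 in SOL and did not pass (0.14 ± 0.06, adjusted p = 0.0562), and the pan-leukocyte gene Ptprc had medians of 6.49 in TA and 6.44 in SOL. On the SOL side, Lgi1, a secreted protein known from neurons, had values of 3.48, 4.77 and 5.47 in TA and 10.01, 10.89 and 11.32 in SOL, 69.5-fold lower in TA. Tecrl, an enoyl reductase-like protein of the reticulum, was 61.5-fold lower, at 3.47 to 4.86 in TA and 9.03 to 10.58 in SOL, and P3h2, which hydroxylates prolines of collagen, was 15.7-fold lower. Among 26 called genes at least 8-fold apart, 12 were higher and 14 lower in TA.

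Markers of other cells are given beside the 28.4% of all genes called higher and the 20.3% called lower. Of 11 measured fibroblast and tendon markers, 6 were lower in TA and 2 higher, with mean levels of 8.48 to 9.07 in TA and 8.89 to 9.47 in SOL. Tenomodulin, Tnmd (-1.34 ± 0.07), fibromodulin, Fmod (-1.18 ± 0.08), and Comp (-1.07 ± 0.06), genes of tendon and cartilage, were lower with no overlap, while the collagen gene Col3a1 (0.17 ± 0.04) and lumican, Lum (0.25 ± 0.06), were higher. Endothelial markers were lower for 7 of 10, with mean levels of 8.95 to 9.21 in TA and 9.10 to 9.40 in SOL. Emcn was lower by -0.56 ± 0.05 and Pecam1 by -0.27 ± 0.04. Of 10 macrophage markers, 4 were lower and 1 higher. The higher one, Fcgr1, lost its call with arrays centred on the median (adjusted p = 0.0548) and with quantile normalization (0.18). Of 9 lymphocyte and granulocyte markers, 2 were higher, Ighm among them, and 0 lower. Of 6 Schwann cell markers 2 were lower and 1 higher, and of 8 smooth muscle markers 2 were higher and 2 lower. The higher Schwann cell marker, S100b, lost its call with array weights (adjusted p = 0.0657), quantile normalization (0.127) and a series term (0.187). Of 4 erythroid markers, 0 were called by limma and 0 had an unadjusted p under 0.05. Myod1, a satellite cell and fast fibre gene, was higher in TA (0.84 ± 0.05) while Pax7, the satellite cell factor, was lower (-0.11 ± 0.04, adjusted p = 0.0303). Pax7 lost the call with array weights, quantile normalization and without the 2 mKO animals whose albumin (Alb) level was over 9 in a muscle (adjusted p = 0.0625, 0.123 and 0.121) and within each series (0.0679 and 0.246). Of 7 satellite cell markers 2 were higher and 2 lower. Skin markers had 3 of 7 higher, led by Trp63 (0.58 ± 0.05). Krt1, another of them, lost its call with quantile normalization (adjusted p = 0.0532) and with a series term (0.0599). Liver markers had 4 of 12 higher and 1 lower, Cyp2e1 (-1.44 ± 0.15). The 4 higher ones did not hold under all settings: Ahsg and Fgb lost the call without pairing (adjusted p = 0.0518 and 0.055), Apoa2 without the animals with Alb over 9 (0.109) and Ttr without pairing and without those animals (0.0677 and 0.0658). Mean levels of the liver list were 5.29 to 6.13 in TA and 5.29 to 6.10 in SOL. The part of other cells in the results above was not tested.

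At single times, with 3 animals each, limma called 3798 genes at ZT0 (18.8%), 3436 at ZT4 (17%), 4289 at ZT8 (21.2%), 4324 at ZT12 (21.4%), 3581 at ZT16 (17.7%) and 3762 at ZT20 (18.6%). Of the genes called over all times, 7715 had the same sign at all 6. A 24 h wave in the difference was called for 39 genes (0.193%), against 2255 at an unadjusted p under 0.05. Series and time were tied: all mKO animals of ZT0, ZT4 and ZT16 were BM3 and all those of ZT12 and ZT20 BM2 or BM2*, while all Ctrl animals of ZT20 were BM3. The count was 23 with a series term, 7 with 6 separate time levels and 21 to 25 without ZT4 replicate A or B, ZT16 replicate B or C, or ZT20 replicate B. In Ctrl animals the same test called 57 (0.282%). The amplitude of a wave is its height above its mean, in log2 units.

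Fzd9, a Wnt receptor, had values of 7.38, 7.68 and 7.90 in TA and 9.25, 10.43 and 10.88 in SOL, with no overlap. Its difference was -3.12 at ZT0, -3.11 at ZT4, -2.50 at ZT8, -1.74 at ZT12, -1.90 at ZT16 and -2.94 at ZT20 (amplitude 0.77, adjusted p = 0.000218). The TA arrays of Fzd9 stayed within a narrow band while SOL varied. Rnf122, a ubiquitin ligase, ran from 8.42 to 8.82 in TA and 7.45 to 8.56 in SOL, with a difference of 0.11 at ZT8 and 1.17 at ZT20 (amplitude 0.54, adjusted p = 0.000218). Pdk4, the kinase that shuts pyruvate out of the citrate cycle, differed by -1.30 at ZT0 and -0.21 at ZT8, and was lower in TA in all 18 animals (amplitude 0.56, adjusted p = 0.00296). Mamstr, a coactivator of MEF2 proteins, differed by 0.13 at ZT8 and 1.49 at ZT20 (amplitude 0.64). Nr1d1 had a difference near 0 at ZT0 (-0.04), -0.98 at ZT8 and 0.33 at ZT20 (amplitude 0.67, adjusted p = 0.00296). Its mean was thus higher in SOL at ZT8 and in TA at ZT20, but the wave test does not test the sign at a single time. For Bhlhe41 the difference was 2.10 at ZT0 and 1.19 at ZT12 (amplitude 0.48).

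Also among the 10 with the smallest p were the membrane protein gene Tmem171 (amplitude 0.60, adjusted p = 0.00322), the matrix protease gene Adamts1 (0.52), the aryl hydrocarbon receptor target Tiparp (0.45) and Lrrn1 (0.47, adjusted p = 0.0059), which encodes a leucine-rich repeat protein. Without the pairing of muscles within animals, Mamstr, Pdk4 and Bhlhe41 lost their calls (adjusted p = 0.054, 0.199 and 0.133). With 6 separate time levels in place of the wave, Mamstr, Nr1d1, Bhlhe41, Adamts1, Tiparp and Lrrn1 lost theirs. In Ctrl animals, the amplitude was 0.68 for Fzd9, 0.58 for Rnf122 and 1.04 for Tmem171, all called, against 0.30 for Pdk4 (adjusted p = 0.209). The test of the wave in mKO against Ctrl called 0 genes by limma (749 at an unadjusted p under 0.05). Its smallest p belonged to the kinase gene Pim1, whose wave differed by an amplitude of 0.46 (adjusted p = 0.476).

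**Figure D3:**
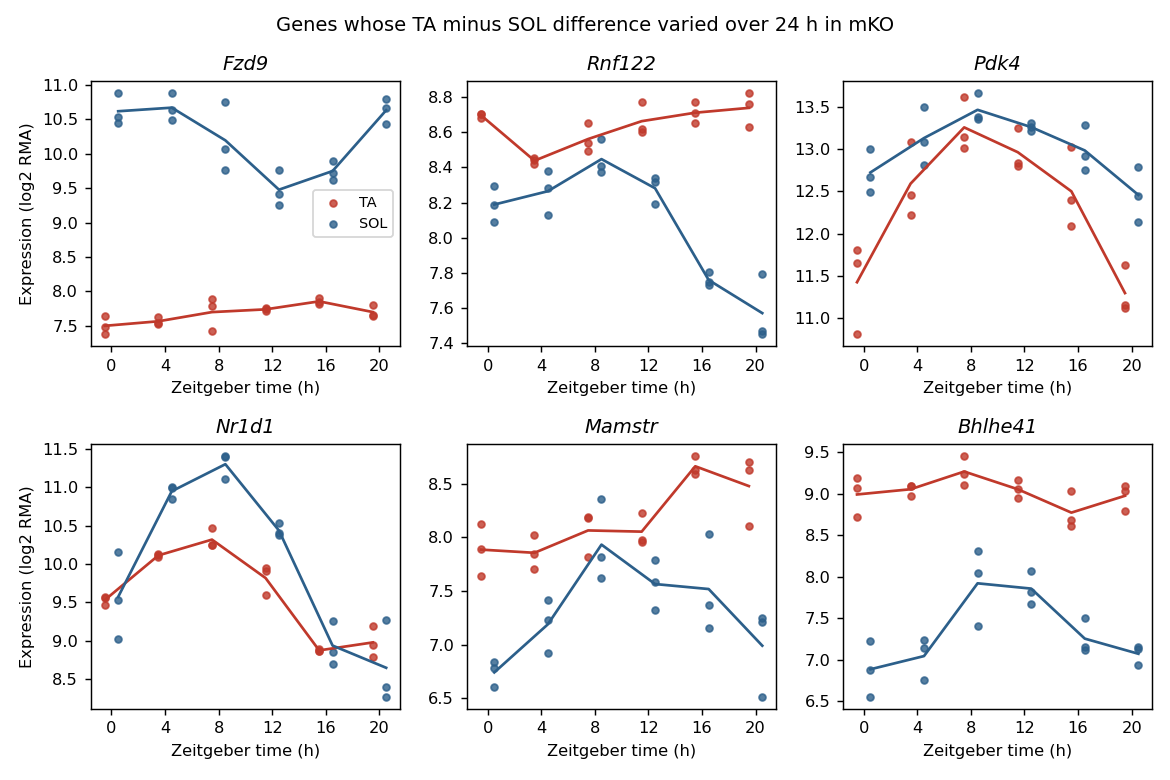
Log2 signal of Fzd9, Rnf122, Pdk4, Nr1d1, Mamstr and Bhlhe41 in mKO TA and SOL against Zeitgeber time (h), 1 point per animal shifted 0.5 h sideways by muscle, with lines through the means of 3 animals. Fzd9 stays level in TA, where all values lie between 7.38 and 7.90, and varies in SOL between 9.25 and 10.88.

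In Ctrl animals 4393 genes (21.7%) were higher in TA and 3888 (19.2%) lower, 40.9% together. Calls of the same sign in both genotypes covered 6985 genes, which is 70.9% of the mKO calls and 84.3% of the Ctrl calls, and 27 had opposite signs. Of the 418 genes at least 2-fold apart in mKO, 417 were also called in Ctrl with the same sign. The difference between muscles itself differed between genotypes for 549 genes (2.71%): 242 (1.2%) had a more positive difference in mKO and 307 (1.52%) a more negative one. The gap was wider in mKO for 302 of them and narrower for 247, and 16 changed by at least 2-fold.

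Liver transcripts stood out on some arrays in this comparison. Mean levels of the liver list were 5.25 to 11.04 on Ctrl TA arrays, and albumin, Alb, reached 13.66 in TA of Ctrl ZT0 replicate A, while 2 mKO and 3 Ctrl animals had Alb over 9 in a muscle. Without these 5 animals, 196 genes had a more positive and 190 a more negative difference in mKO.

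Of 13 slow sarcomere genes, 5 passed this test between genotypes, and of 12 fast ones 2 did, beside 2.71% of all genes. Among those that did not pass, Myl2 differed between TA and SOL by -6.54 in mKO and -6.61 in Ctrl (difference 0.07, adjusted p = 0.88) and Myh4 by 2.56 in mKO and 2.76 in Ctrl (-0.21, adjusted p = 0.914). Those that passed were Ankrd2 (0.87), Myoz2 (0.76), Myh7b (0.27), Mybpc1 (-0.20), Myl6b (-0.71), Mybpc2 (0.84) and Myoz1 (0.20), each given as the mKO difference minus the Ctrl difference. Myoz2, for instance, had medians of 10.86 in mKO TA and 13.21 in mKO SOL, against 9.96 in Ctrl TA and 13.15 in Ctrl SOL. Within BM3 only Ankrd2 kept its call (0.93). There the change was 0.66 for Myoz2, 0.30 for Myh7b, -0.21 for Mybpc1, -0.66 for Myl6b, 0.74 for Mybpc2 and 0.16 for Myoz1. Within BM2 and BM2* it was 0.53, 0.45, 0.25, -0.19, -0.71, 0.72 and 0.05 in the same order, starting with Ankrd2. These genes did not pass there, where ZT8 holds 1 mKO and 1 Ctrl animal. Myh7b and Myoz1 lost the call without the animals with Alb over 9 (adjusted p = 0.309 and 0.0936), and Myh7b, Myoz1 and Mybpc2 lost it with an intensity trend and robust eBayes in limma (0.0511, 0.0507 and 0.0634). With array weights the test was passed by Tpm3 (0.46, adjusted p = 0.00821), Myl3 (0.45, 0.0322), Actn3 (0.88, 0.0321) and Mylpf (-0.20, 0.0458), and Mylk2 passed it among genes above the median level (0.15, 0.0449).

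The widest of these changes were in genes outside the fibre lists. Car3 had values of 11.47, 12.05 and 12.45 in mKO TA and 13.49, 13.79 and 13.90 in mKO SOL, against 13.60, 13.75 and 13.85 in Ctrl TA and 13.68, 13.82 and 13.97 in Ctrl SOL. All mKO TA arrays lay below all others, and the muscle difference was -1.73 in mKO and -0.08 in Ctrl (change -1.66, adjusted p = 4.8e-18). The other groups lay near 14.23, the highest value on any array, where a difference between muscles may be understated. The change was -1.64 within BM3 and -1.61 within BM2 and BM2*. The carboxylesterase gene Ces1d stood at 5.51, 6.01 and 6.61 in mKO TA and 6.07, 6.78 and 8.04 in mKO SOL, against 8.09, 8.78 and 9.86 in Ctrl TA and 6.52, 7.58 and 8.16 in Ctrl SOL. Its sign turned, with -0.80 in mKO and 1.38 in Ctrl (change -2.17, adjusted p = 1.4e-10). Prss55, a serine protease gene, had values of 8.41, 9.19 and 9.54 in mKO TA and 6.15, 6.80 and 7.10 in mKO SOL, against 6.09, 6.32 and 6.83 in Ctrl TA and 5.72, 6.05 and 6.46 in Ctrl SOL. It was high on the mKO TA arrays, with a muscle difference of 2.37 in mKO and 0.28 in Ctrl (change 2.09, adjusted p = 1.2e-15), and 2.19 within BM3 and 1.85 within BM2 and BM2*.

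Other genes whose gap was wider in mKO were Mss51 (4.85 in mKO and 3.46 in Ctrl), Ighm (3.73 in mKO and 2.44 in Ctrl), Mylk4 (3.37 in mKO and 2.18 in Ctrl), the phosphatase gene Dupd1 (1.48 in mKO and 0.44 in Ctrl), the sodium-calcium exchanger Slc8a1 (2.23 in mKO and 1.24 in Ctrl), the tubulin polyglutamylase Ttll7 (2.35 in mKO and 1.40 in Ctrl), the hydrolase gene Cmbl (2.93 in mKO and 1.98 in Ctrl), Mybph, a myosin-binding protein (1.57 in mKO and 0.66 in Ctrl), and Cpne2 (0.88 in mKO and -0.03 in Ctrl). Mylk4 had medians of 11.92 in mKO TA and 8.88 in mKO SOL, against 13.11 in Ctrl TA and 10.90 in Ctrl SOL. Genes whose difference was more negative in mKO included Aebp1, a matrix-associated protein (-0.07 in mKO, adjusted p = 0.305, and 1.18 in Ctrl), the potassium channel modifier Kcng4 (0.57 in mKO and 1.78 in Ctrl), the actin-oxidising enzyme Mical2 (0.38 in mKO and 1.59 in Ctrl), monoamine oxidase Maob (-1.20 in mKO and -0.01 in Ctrl), the methyltransferase Mettl21c (-1.41 in mKO and -0.28 in Ctrl), Ifit3b, an interferon-induced gene (0.04 in mKO and 1.12 in Ctrl), the natriuretic peptide clearance receptor Npr3 (-2.43 in mKO and -1.36 in Ctrl) and Nkain1 (-0.52 in mKO and 0.54 in Ctrl). Maob had medians of 7.64 in mKO TA and 8.94 in mKO SOL, against 9.32 in Ctrl TA and 9.34 in Ctrl SOL. All 20 genes passed within BM3. Within the BM2 and BM2* animals alone, Car3, Prss55, Ttll7, Aebp1, Maob, Mical2, Kcng4 and Nkain1 passed, and the other 12 did not. Of these 12, Mettl21c changed by -0.12, Npr3 by -0.37 and Cmbl by 0.52 there, against -1.13, -1.26 and 0.93 within BM3. Values within BM2 and BM2* average ZT8 and ZT12, and those within BM3 average ZT0, ZT4, ZT8 and ZT16. Series and time of day cannot be told apart between them. The other 9 were Mss51, Ighm, Mylk4, Dupd1, Slc8a1, Mybph, Cpne2, Ces1d and Ifit3b, with adjusted p from 0.0602 (Ces1d) to 0.9998 (Mss51 and Mybph).

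**Figure D4:**
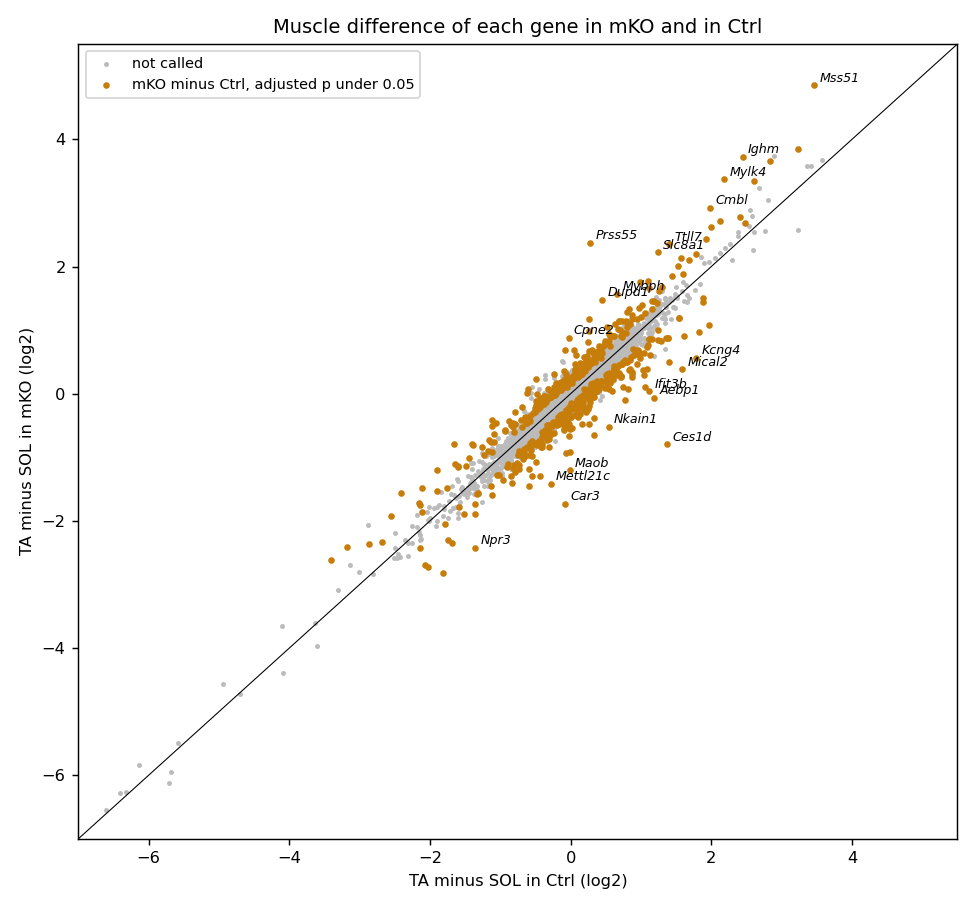
Difference TA minus SOL of each named gene in mKO (vertical axis) against that in Ctrl (horizontal axis), both log2, with the 549 genes whose difference changed between genotypes in orange, 20 of them named, and a diagonal of equal differences. Most genes lie near the diagonal, Prss55 and Mss51 above it and Ces1d and Car3 below it.

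Clock genes were among those whose muscle difference changed. Of 15 core clock genes, 2 had a more positive and 6 a more negative difference in mKO, and of 11 clock output genes 1 and 6, beside 1.2% and 1.52% of all genes. Dbp averaged 7.80 in mKO TA and 8.73 in mKO SOL, against 9.35 in Ctrl TA and 9.42 in Ctrl SOL, so the muscle difference was -0.93 in mKO and -0.07 in Ctrl (change -0.86, adjusted p = 8.2e-09). Nr1d2 differed by -0.38 in mKO and 0.33 in Ctrl (change -0.71), with a median of 9.60 in mKO TA and 9.95 in mKO SOL, against 11.08 in Ctrl TA and 10.76 in Ctrl SOL. Npas2 turned the other way, 0.24 in mKO and -0.50 in Ctrl (change 0.74), at medians of 8.36 in mKO TA and 8.02 in mKO SOL, against 6.32 in Ctrl TA and 6.86 in Ctrl SOL. For Bhlhe40 the change was -0.74, and for Bhlhe41 it was 0.38, which lost its call with arrays centred on their medians (adjusted p = 0.0611), with array weights (0.154), without a time term (0.211) and within BM3 (0.28). Per1 (-0.47), Per3 (-0.45), Nr1d1 (-0.48), Hlf (-0.51), Usp2 (-0.42), Tsc22d3 (-0.29), Tef (-0.24) and Rora (-0.23) had more negative differences in mKO, and Cdkn1a (0.59) a more positive one. Without a time term Nr1d1, Tef and Tsc22d3 lost the call (adjusted p = 0.09, 0.106 and 0.0649), and within BM3 Nr1d1, Rora, Tef and Tsc22d3 did not pass (0.0848, 0.233, 0.328 and 0.427). Rora changed by -0.22 within BM3 and -0.05 within BM2 and BM2*. Within BM3 the change was -0.86 for Dbp, -0.75 for Nr1d2 and 0.72 for Npas2, and within BM2 and BM2* it was -0.80, -0.60 and 0.61. The clock gene changes given here did not pass within BM2 and BM2*, where ZT8 holds 1 mKO and 1 Ctrl animal. Changes within BM3 average ZT0, ZT4, ZT8 and ZT16, and those within BM2 and BM2* only ZT8 and ZT12, with few animals. Series and time of day cannot be told apart between them.

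Several fast fibre genes were among the 10 called genes whose difference varied most between animals. The SD of the 18 differences was 1.49 for Myh4, the highest among called genes, 1.04 for Pvalb and 0.91 for Mybpc2, with Actn3 between the last 2. For comparison, the median SD over called genes was 0.187. Myh4 had an SD of 1.45 over the SOL arrays and 0.08 over the TA arrays. Its TA values lay near the top of the scale, where the highest value on any array was 14.23. Whether this narrowed their spread was not tested. In SOL it ran from 9.96 to 12.46 (median 11.87) in the 11 BM3 animals and from 7.67 to 12.70 (median 10.44) in the 7 BM2 and BM2* animals. Over the 18 SOL arrays Myh4 correlated with Mybpc2 (Pearson r = 0.928, Spearman rho = 0.909), Actn3 (r = 0.843, rho = 0.880) and Pvalb (r = 0.837, rho = 0.866). By permutation over 100000 resamples, adjusted over the 6 relations computed, p was 3e-05, 3e-05 and 0.0001 for r and 2e-05 for each rho. The resamples shuffled the arrays freely across times and series. Myh4, Mybpc2, Actn3 and Pvalb were also among the genes named for wide spread in these same animals. These p values take account of neither. The smallest raw p these resamples can give is 1e-05. Leaving out the 2 SOL arrays farthest from the median of Myh4, r was 0.822 for Mybpc2, 0.805 for Actn3 and 0.833 for Pvalb. Within BM3 r was 0.889, 0.692 and 0.743, and within BM2 and BM2* 0.962, 0.940 and 0.893. The other 3 relations did not pass: r was -0.357 with Myh1 (rho = -0.451), 0.277 with Myh2 (rho = 0.344) and -0.205 with Myh7 (rho = 0.051), with permutation p of 0.145, 0.267 and 0.418 (adjusted 0.217, 0.32 and 0.418). The other 6 of these 10 genes were Nr4a3 (SD 1.06), Pfkfb3 (0.85), H2az1 (0.85), Mir133b (0.82) and the vomeronasal receptor genes Vmn2r12 (0.95) and Vmn2r25 (0.84). Among other settings, Vmn2r12 and Vmn2r25 lost their calls with quantile normalization (adjusted p = 0.0641 and 0.0696) and with a series term (0.0937 and 0.115).

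**Figure D5:**
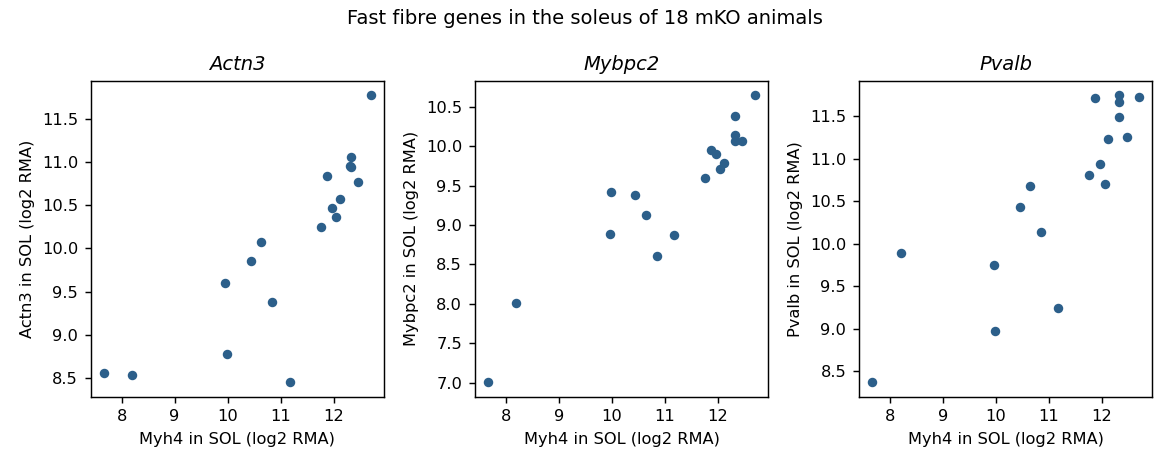
Log2 signal of Actn3, Mybpc2 and Pvalb (vertical axes) against that of Myh4 (horizontal axis) on the SOL arrays of 18 mKO animals, 1 point per animal. SOL values of Myh4 span 7.67 to 12.70, and the other 3 genes are high where Myh4 is high (r = 0.843 for Actn3, 0.928 for Mybpc2 and 0.837 for Pvalb).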

How the data were processed

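RNA of both muscles of 36 mice was measured on 72 whole-transcript arrays. The deposited values are log2 signals, normalised by the authors with RMA per the submitters' processing notes; its version and its background and probe settings are not given in the sources used here. Of 21225 probe sets, 20239 had 1 gene symbol, 0 had several and 986 stayed unnamed. RMA pulls extreme signals together, so gaps of bright or dim genes may be understated.

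Muscle, genotype, time and replicate letter came from the labels, in which the age and gender tags hold each other's entry. Both muscles with the same letter come from 1 animal, per the labels. As a check, each array's deviation from the mean of its 3 was set against that of its partner, and the 18 mKO pairs gave a median r of 0.046 (-0.135 to 0.296, over 0.1 in 5).

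Differences TA minus SOL within animals were fitted with limma 3.58.1 in R 4.3.3 (lmFit, eBayes), with a term per time, and averaged over the 6 times. The interaction with genotype used all 36 animals, and the 24 h wave a cosine and a sine with the moderated F test. Benjamini-Hochberg adjustment ran over 20239 genes, with a threshold of 0.05 and no filter on low values. Each test was first run on simulated data. Alternatives were array centring, quantile normalization, array weights, a filter on low levels, other time terms, series terms, each series alone and each animal left out.

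The members and the gene lists, written from general knowledge, were chosen with earlier results of these data known. Of 544 list entries, 42 were not measured under the listed symbol. Named genes were the 12 largest changes per direction with 1 sign in all 18 animals, all members of the sarcomere, regulator and core clock lists, up to 4 members per direction of other lists, the 10 largest interactions per direction, the 10 smallest p of each 24 h test and the 10 largest SDs, and the text gives those the results turn on. Of the called genes, 464 had only a model name and were not named. The miRNA genes, Alb and the 4 promoters were chosen after values were seen.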

Additional observations from a re-analysis of the deposited data

Results flagged for a closer look

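The difference between TA and SOL itself differed between mKO and Ctrl, by the limma test of that difference on 36 animals, for the following named genes, each given as the mKO difference minus the Ctrl difference in log2 units. Among core clock genes it was 0.74 for Npas2 and 0.38 for Bhlhe41, and -0.47 for Per1, -0.45 for Per3, -0.48 for Nr1d1, -0.71 for Nr1d2, -0.23 for Rora and -0.74 for Bhlhe40. Among clock output genes it was 0.59 for Cdkn1a, and -0.29 for Tsc22d3, -0.24 for Tef, -0.86 for Dbp, -0.42 for Usp2 and -0.51 for Hlf. The largest positive values were 2.09 for Prss55, 1.38 for Mss51, 1.28 for Ighm, 1.19 for Mylk4, 1.04 for Dupd1, 0.99 for Slc8a1, 0.95 for Ttll7, 0.94 for Cmbl, 0.91 for Mybph and 0.91 for Cpne2. The largest negative values were -2.17 for Ces1d, -1.66 for Car3, -1.25 for Aebp1, -1.21 for Kcng4, -1.20 for Mical2, -1.19 for Maob, -1.13 for Mettl21c, -1.08 for Ifit3b, -1.07 for Npr3 and -1.06 for Nkain1. Not all of these calls held under other settings. Bhlhe41 lost its call with arrays centred on their medians (adjusted p = 0.0611), with array weights (0.154) and without a time term (0.211), and Nr1d1 (0.09), Tef (0.106) and Tsc22d3 (0.0649) lost theirs without a time term.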

How the results depend on the processing

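No named gene changed the sign of a called difference under any alternative run, and 14719 of 15144 gene values under alternatives stayed on their side of the threshold. Without the replicate block, that is with muscles of 1 animal not paired, limma called 5730 genes higher and 4139 lower in TA of mKO, 4516 and 3922 in Ctrl, 258 more positive and 319 more negative between genotypes, 32 with a 24 h wave in mKO and 0 in mKO against Ctrl. Within the 7 mKO and 6 Ctrl animals of series BM2 and BM2*, the counts were 2242 higher and 2305 lower in mKO, 2318 and 2004 in Ctrl, and 4 and 7 between genotypes; within BM3 the genotype counts were 80 and 87, with fewer animals in each case. Array weights gave 526 and 675 between genotypes, and leaving out the 5 animals with Alb over 9, chosen after the data were seen, gave 190 more negative. That setting leaves 1 Ctrl animal at ZT0, which is assumed to vary like the other groups. The counts within a series also cover fewer times. Within BM2 and BM2*, the genotype counts compare ZT8 and ZT12 only, with 1 mKO and 1 Ctrl animal at ZT8. The mKO counts there average ZT8, ZT12 and ZT20, and the Ctrl counts ZT8, ZT12 and ZT16. The genotype counts within BM3 average ZT0, ZT4, ZT8 and ZT16. Series, times and number of animals cannot be told apart in these counts. Testing only the 10119 genes above the median level gave 3713 higher in mKO. The 24 h count of 39 was 72 with array weights, 125 above the median level, 23 with a series term and 7 with 6 time levels; the cause was not tested. Leaving out 1 animal gave 21 to 43 for it, with 23 without mKO ZT4 replicate A, 21 without ZT4 B, 23 without ZT16 B, 25 without ZT16 C and 22 without ZT20 B. The other leave-one-out ranges were 5234 to 6022 higher and 3956 to 4157 lower in mKO, 4162 to 4496 and 3674 to 3971 in Ctrl, 211 to 254 and 273 to 365 between genotypes, and 0 to 0 for the 24 h wave in mKO against Ctrl. Quantile normalization moved the share of calls higher in TA of mKO to 53.2%, against 58.3% as reported. The number of arrays limits the precision, and small differences near the all-gene median depend on the scaling.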

Other observations

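The liver list and Alb are the values that belong in no comparison of muscles. Alb ran from 5.37 to 9.18 in mKO TA and from 5.56 to 8.64 in mKO SOL, against 5.39 to 13.66 in Ctrl TA and 5.44 to 10.98 in Ctrl SOL. In Ctrl ZT4 replicate C both muscles were high, at 11.29 in TA and 10.98 in SOL. Alb did not pass the test between muscles in mKO (0.19 ± 0.24, adjusted p = 0.528).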
